A study of Mus musculus with 6 samples.

Results

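The genes described here are 31 genes of the p53 pathway, made up of p53 itself (Trp53 in the mouse), its direct regulators and genes whose transcription p53 is known to drive. They were taken by symbol from a table of 14870 genes measured by RNA sequencing, and all 31 were found there. A gene was tested if its mean normalized count reached 10 with Aurkb siRNA or with control siRNA, and all 31 were among the 13906 genes that did so. The libraries were made from primary lung-resident fibroblasts, the cells that deposit most of the collagen of the lung. The tested cells were transfected with a stealth siRNA against Aurkb, the gene of Aurora kinase B, a mitotic kinase of chromosome attachment and cytokinesis, and the cells they were compared with received a stealth negative control siRNA. There were 3 libraries of each, made 72 h after transfection, and the comparison asks what loss of AURKB did to fibroblast gene expression. Both groups came from TGFα mice, in which the Clara cell-specific promoter drives the transactivator rtTA in airway epithelium and doxycycline (Dox) in the food then turns on a TGFα transgene. All cells thus carried both transgenes and came from mice given Dox for 10 days, aged 10 to 16 weeks in the methods of the study, and primary cells were used between passages 1 and 5. A single mouse Aurkb siRNA product is named, and the sources used here leave unsaid whether each library stands for its own mouse or culture. The p-values therefore measure the spread between these libraries, which may be technical.

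The protein p53 is a transcription factor that is held at a low level by MDM2, the ubiquitin ligase that marks it for breakdown. When DNA damage, a failed mitosis or another stress frees it from MDM2, it binds a DNA element made of 2 copies of a short half-site and turns on genes that stop the cell cycle, repair DNA, restrain growth or start cell death. Mdm2, Mdm4, Ppm1d and Ccng1 act back on p53, so that the pathway limits itself. In fibroblasts, the pathway is best known for the lasting cell cycle arrest of damaged or aged cells, in which the cyclin-dependent kinase inhibitor p21, encoded by Cdkn1a, takes the main part. Many p53 targets also answer to other factors. Gdf15 and Sesn2 are known targets of the stress factor ATF4, Sesn2 also of the antioxidant factor NRF2, and Sesn1 of the FOXO factors.

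Matches to the p53 element are shown first for Ccng1, Cdkn1a, Sesn1 and Mdm2, of which those of Ccng1 and Cdkn1a were the plainest. Ccng1 and Cdkn1a each carried a pair of touching half-sites near an annotated start and gave unlike results below. The sequences were taken from RefSeq promoter windows on GRCm38.p6, which run from 250 bases before to 50 bases after an annotated start. Windows were found for 25 of the 31 genes. A gene can have several starts, and these 25 genes had 34 windows. In these lines the capitals mark the half-sites, the lower-case letters are flanks or spacers, and each sequence is given 5′ to 3′ on the strand of the gene. The Ccng1 stretch lies at chr11:40755442-40755501 on the minus strand, the Cdkn1a stretch at chr17:29090908-29090967 on the plus strand, the Sesn1 stretch at chr10:41887233-41887295 on the plus strand and the Mdm2 stretch at chr10:117710915-117710964 on the minus strand.
Ccng1: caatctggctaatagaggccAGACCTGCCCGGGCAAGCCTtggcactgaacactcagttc
Cdkn1a: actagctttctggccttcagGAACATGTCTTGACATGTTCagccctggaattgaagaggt
Sesn1: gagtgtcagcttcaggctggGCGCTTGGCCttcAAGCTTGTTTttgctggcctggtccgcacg
Mdm2: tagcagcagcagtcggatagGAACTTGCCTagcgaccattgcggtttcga
The Ccng1 and Cdkn1a elements each held a pair of half-sites that touch, with 1 mismatch in all. The same Cdkn1a window also held a pair 12 bases apart with 0 mismatches, which shares its second half-site with the pair shown. A further Cdkn1a window, downstream at chr17:29093519-29093818, held neither a half-site nor a pair. The Sesn1 element held a pair 3 bases apart with 2 mismatches, and Mdm2 held 1 half-site without a mismatch and no pair. Aen, Ddit4l and Trp53 held both such a half-site and a pair with 3 mismatches, and are not printed. The Sesn1 window (chr10:41887189-41887488) belongs to a start inside the gene, which spans chr10:41810574-41908436.

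The libraries held 20820596 to 27572833 counted reads with Aurkb siRNA and 29350227 to 30441954 with control siRNA. Aurkb itself averaged 39.7 ± 12.1 normalized counts with Aurkb siRNA and 114 ± 17.8 with control siRNA (SD, n = 3 libraries each), with no overlap between the groups. A normalized count is the number of reads of a gene divided by the size factor of the library, which was worked out here from the authors' group means. The fibroblast label held, since all 8 fibroblast markers were measured and took 36750 to 40393 RPM (reads scaled to the counted total of a library) with Aurkb siRNA and 42929 to 48507 with control siRNA in sum. Of these markers 0 were called higher and 2, Pdgfra and Dcn, were called lower. Summed endothelial markers took 190 to 227 RPM with Aurkb siRNA and 298 to 365 with control siRNA, and 8 of 10 were called lower and 0 higher. Summed macrophage and leukocyte markers took 22.1 to 26.9 and 43.1 to 46.4 RPM in the same order (1 of 4 tested higher, 2 lower). The defining macrophage genes Adgre1, C1qa and C1qb were not in the table. Neutrophil granule genes took 10.3 to 11.3 and 1.68 to 2.18 RPM in the same order (6 of 7 tested higher, 0 lower). Their median log2 fold change was 4.28, and the largest, 6.01, was also the largest of all genes tested. Pericyte and smooth muscle markers overlapped in sum, at 415 to 653 RPM with Aurkb siRNA and 436 to 594 with control siRNA, but 5 of 8 (Mcam, Abcc9, Notch3, Kcnj8 and Rgs5) were called lower and 0 higher, with a median log2 fold change of -0.73. Epithelial markers took 25.3 to 51.5 RPM with Aurkb siRNA and 23.2 to 37.5 with control siRNA, and mesothelial markers 577 to 1101 and 1063 to 1263 in the same order. In the epithelial list 1 of 6 tested was higher and 1 lower, and in the mesothelial list 1 of 6 was higher and 2 lower. The higher gene was Krt19 in both, since it is on both lists. Over all genes tested, 4.64% were called higher and 7.67% lower. The part of these other cells in the values of the p53 genes was not tested.

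With Aurkb siRNA, 8 of the 31 p53 genes rose and 1 fell, while Cdkn1a and Trp53 themselves were not called. The genes that rose were Gdf15, Sesn2, Pidd1, Plk2, Plk3, Ddit4l, Ccng1 and Mdm2, and the gene that fell was Sesn1. Calls required both an adjusted p of at most 0.05 and a difference of 1.5-fold or more, from limma on log2(normalized count + 1) with Benjamini-Hochberg adjustment over all genes tested. The same rule called 4.64% of all genes tested higher and 7.67% lower, against 25.8% and 3.23% of the p53 genes. By the adjusted p alone, 16 of the p53 genes were higher and 6 lower, beside 19.5% and 20.5% of all genes tested. The libraries of the groups did not overlap for 18 p53 genes that were higher and 9 that were lower, beside 26% and 26.2% of all genes tested, and overlapped for Cdkn1a, Phlda3, Trp53inp2 and Ppm1d. The median log2 fold change of the 31 genes was 0.17, beside 0.00 over all genes tested, with 20 genes above 0 and 11 below. The roles described below hold 4 to 8 genes each, too few to compare their counts with each other. In RNA from whole cultures, fewer cells of a type and less RNA per cell cannot be told apart.

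**Figure D1:**
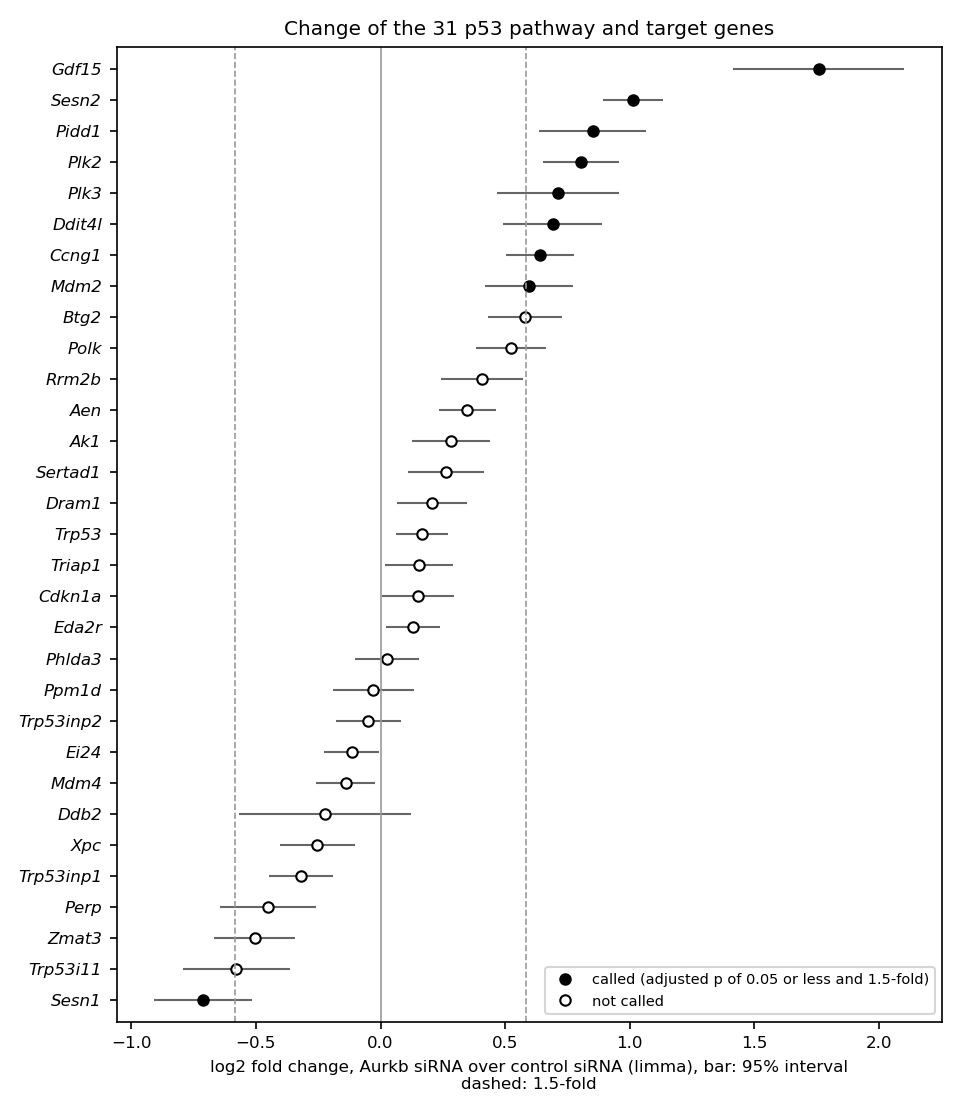
The log2 fold change of each of the 31 p53 genes, Aurkb siRNA over control siRNA, is plotted with its 95% interval from limma (n = 3 libraries each), with called genes filled and dashed lines at 1.5-fold. Gdf15 stands at 1.76 and Sesn2 at 1.01, Sesn1 is at the other end at -0.71, and Cdkn1a at 0.15 lies in the middle of the list.

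Among p53 and its direct regulators, 2 of 8 genes rose and 0 fell, beside 4.64% and 7.67% of all genes tested. Trp53 (chr11:69580348-69591873) had 2345, 2299 and 2396 normalized counts with Aurkb siRNA, against 2093, 2036 and 2145 with control siRNA. Every Aurkb siRNA library was above every control siRNA library, but the step was small, at a log2 fold change of 0.17 (95% interval 0.06 to 0.27, adjusted p = 0.0184 from limma) and short of a call. Mdm2 (chr10:117688875-117710758), the ligase of p53 and one of its best-known targets, had 6439, 6004 and 5422 normalized counts with Aurkb siRNA, against 4205, 4024 and 3582 with control siRNA. Its groups lay well apart, and Mdm2 rose 1.51-fold (log2 fold change 0.60 with a standard error of 0.08, and an adjusted p of 4.43e-04 from limma). That call sat at the edge of the fold threshold, since the log2 fold change was 0.54 without Aurkb siRNA replicate 1 and 0.53 without control siRNA replicate 3, both under 1.5-fold. Mdm4, the relative of MDM2 that covers the activation domain of p53, had 1506, 1634 and 1535 normalized counts with Aurkb siRNA, against 1740.1, 1659 and 1753 with control siRNA. These groups did not overlap either, though they came close, and the log2 fold change of -0.14 had an adjusted p of 0.0591 (limma; 0.0449 with the replicate number as a block). Per length, the ratio of Mdm2 to Mdm4 RPKM was 10.3, 8.86 and 8.51 in the Aurkb siRNA libraries and 5.82, 5.85 and 4.92 in the control siRNA libraries.

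Ccng1 (chr11:40748552-40755309) encodes cyclin G1, which brings the phosphatase PP2A to MDM2. It had 26884, 24799.6 and 24945 normalized counts with Aurkb siRNA, against 15806, 17219 and 16166 with control siRNA. The groups were separated by a gap wider than the range of either, and Ccng1 rose 1.56-fold (log2 fold change 0.64 with a standard error of 0.06, and an adjusted p of 9.16e-05 from limma). Ppm1d, the phosphatase WIP1 that acts on p53 and on its kinases, had 423, 409 and 393 normalized counts with Aurkb siRNA, against 401, 415 and 435 with control siRNA. Its libraries were mixed, with a log2 fold change of -0.03 (95% interval -0.19 to 0.13).

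The remaining genes of this group are named for their induction by p53, and none rose. Trp53i11 had 874, 770.2 and 832 normalized counts with Aurkb siRNA, against 1335, 1056 and 1327 with control siRNA. Control siRNA replicate 2 was the lowest of its group but still above every Aurkb siRNA library, and the log2 fold change of -0.58 (adjusted p = 0.00147 from limma) stopped just short of 1.5-fold. Trp53i11 was called lower without Aurkb siRNA replicate 1 (log2 fold change -0.62), without Aurkb siRNA replicate 3 (-0.59) or without control siRNA replicate 2 (-0.69), so that the number of p53 genes called lower was 1 or 2 when 1 library was left out. Trp53inp1, a nuclear stress protein that binds p53 and also takes part in autophagy, averaged 3621 ± 79.2 normalized counts with Aurkb siRNA and 4526 ± 309 with control siRNA (SD, n = 3 each), a log2 fold change of -0.32 (adjusted p = 0.00237 from limma) that was under the fold threshold. Its relative Trp53inp2 averaged 4739.6 ± 325 normalized counts with Aurkb siRNA and 4897 ± 107 with control siRNA, with overlapping groups.

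**Figure D2:**
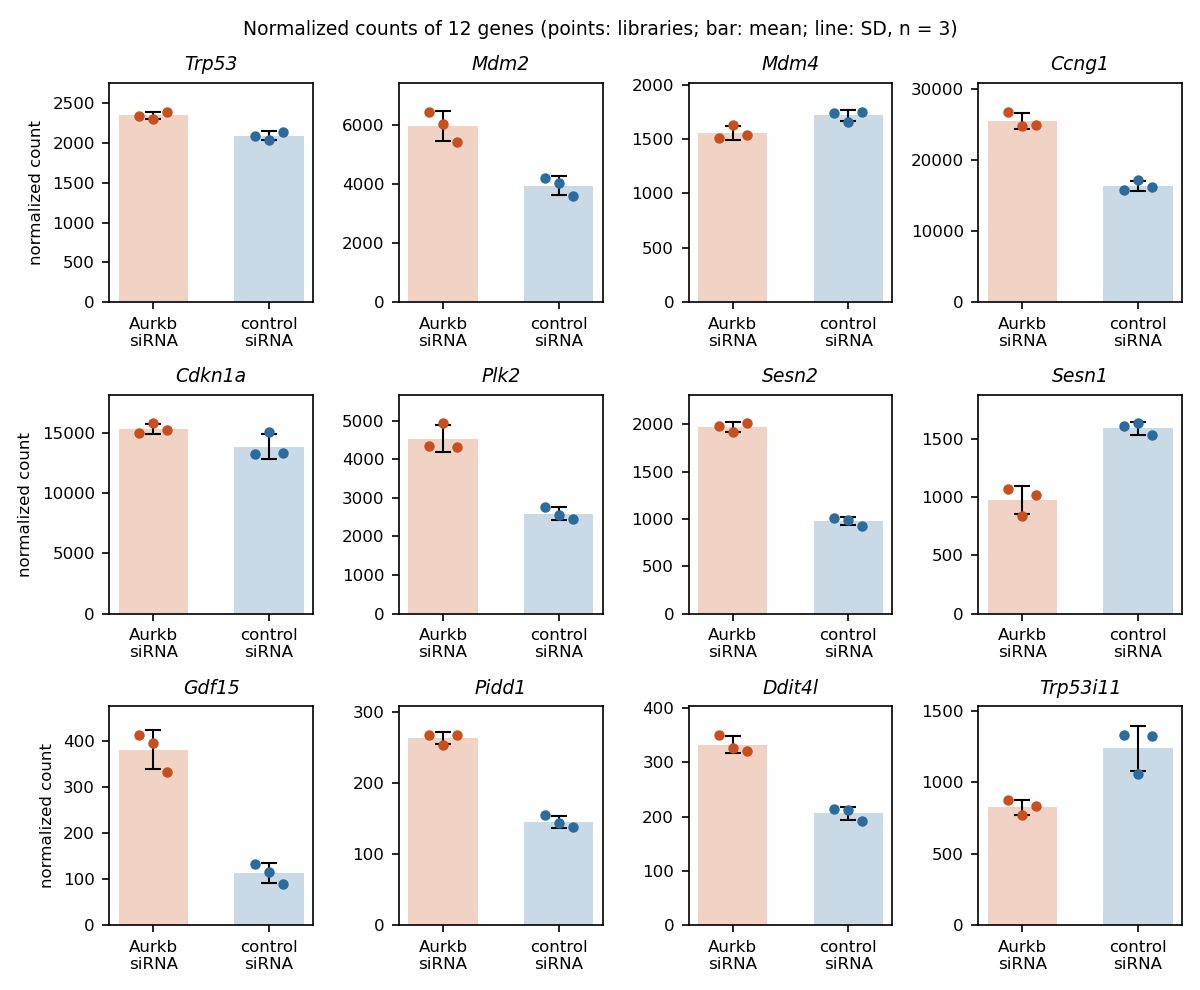
Normalized counts of 12 p53 genes in each library are shown as points, with bars for the group mean and lines for the SD (n = 3), Aurkb siRNA at the left and control siRNA at the right of each panel. The points of Mdm2, Ccng1, Plk2, Sesn2, Gdf15, Pidd1 and Ddit4l lie higher with Aurkb siRNA without overlap, those of Sesn1 and Trp53i11 lie lower, and those of Cdkn1a overlap.

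Of the 6 genes of cell cycle arrest and transcription, 2 rose and 0 fell, beside 4.64% and 7.67% of all genes tested. Cdkn1a (chr17:29090979-29100722), the gene of p21, had 15053, 15865 and 15269 normalized counts with Aurkb siRNA, against 13256, 15082 and 13348 with control siRNA. Control siRNA replicate 2 lay above the lowest Aurkb siRNA library, so that the groups overlapped, and Cdkn1a was not called (log2 fold change 0.15, 95% interval 0.01 to 0.29, adjusted p = 0.0886 from limma, or 0.0182 when the replicate number was a block). The upper end of that interval is under 1.5-fold. By mean, Cdkn1a was also the most abundant of the 31 genes per length, at 279 RPKM with Aurkb siRNA and 251 RPKM with control siRNA. The ratio of Cdkn1a to Trp53 RPKM was 7.71 ± 0.34 with Aurkb siRNA and 7.82 ± 0.77 with control siRNA (SD, n = 3 each), a difference within the spread of the libraries.

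Plk2 (chr13:110395044-110400844) and Plk3 (chr4:117128655-117133963) encode polo-like kinases that respond to stress, in contrast to the mitotic kinase PLK1. Plk2 had 4337, 4937 and 4323 normalized counts with Aurkb siRNA, against 2767, 2553 and 2453 with control siRNA. No library came near those of the other group, and Plk2 rose 1.75-fold (log2 fold change 0.81 with a standard error of 0.07, and an adjusted p of 4.83e-05 from limma). Plk3 had 375, 414 and 394 normalized counts with Aurkb siRNA, against 279, 214 and 232 with control siRNA. The groups did not overlap, and Plk3 rose 1.64-fold (log2 fold change 0.71, adjusted p = 9.71e-04 from limma). The ratio of Plk2 to Plk3 RPKM differed by less than the spread of the libraries, at 9.92 ± 0.42 with Aurkb siRNA and 9.33 ± 0.89 with control siRNA. Plk3 shares exon bases with Tctex1d4 on the other strand, which averaged 9.87 ± 4.85 normalized counts with Aurkb siRNA and 6.09 ± 2.35 with control siRNA.

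Btg2, an antiproliferative partner of the CCR4-NOT deadenylase, had 4214, 3656 and 4198 normalized counts with Aurkb siRNA, against 2823, 2671 and 2567 with control siRNA. The groups were well apart, yet its 1.49-fold change (log2 fold change 0.58, adjusted p = 2.19e-04 from limma) stopped just under the threshold. Btg2 was called without Aurkb siRNA replicate 2 (log2 fold change 0.65) or control siRNA replicate 1 (0.62). Zmat3, an RNA-binding zinc finger protein that is induced by p53 in many tissues, had 2122, 2459 and 2319.8 normalized counts with Aurkb siRNA, against 2998, 3305 and 3489 with control siRNA. It thus ran against Btg2 and the kinases without overlap, at a log2 fold change of -0.50 (adjusted p = 7.25e-04 from limma) that was under the threshold. Sertad1, a regulator of CDK4, averaged 650.4 ± 11.6 normalized counts with Aurkb siRNA and 542 ± 35.4 with control siRNA, a log2 fold change of 0.26.

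The genes of growth, metabolism and stress held the largest changes. Of these 6 genes, 3 were higher and 1 lower, beside 4.64% and 7.67% of all genes tested. Gdf15 (chr8:70629393-70632470) encodes a secreted cytokine of the TGF-β superfamily that signals through the receptor GFRAL. It had 414, 395 and 333 normalized counts with Aurkb siRNA, against 133, 116 and 89.7 with control siRNA. Its lowest Aurkb siRNA library was far above its highest control siRNA library, and Gdf15 rose 3.38-fold (log2 fold change 1.76, 95% interval 1.41 to 2.10, adjusted p = 5.72e-05 from limma). Per length it moved to rank 17 of the 31 genes with Aurkb siRNA, at 12.98 RPKM, against rank 27 with control siRNA, at 3.83 RPKM.

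The sestrins Sesn1 and Sesn2 are stress proteins that restrain the growth kinase complex mTORC1, SESN2 as a sensor of leucine, and they moved in opposite directions. Sesn2 (chr4:132492804-132510456) had 1983, 1917 and 2015 normalized counts with Aurkb siRNA, against 1013, 991 and 929.8 with control siRNA. The libraries of each group were tight, and Sesn2 rose 2.02-fold with the smallest adjusted p of the 31 genes (log2 fold change 1.01 with a standard error of 0.05, and an adjusted p of 9.98e-06 from limma). Sesn1 (chr10:41810574-41908436) had 1076, 842 and 1023 normalized counts with Aurkb siRNA, against 1614, 1641 and 1536 with control siRNA. Every Aurkb siRNA library was below every control siRNA library, and Sesn1 fell 1.64-fold (log2 fold change -0.71 with a standard error of 0.09, and an adjusted p of 3.25e-04 from limma). Within each library, the ratio of Sesn2 to Sesn1 RPKM was 2.32, 2.86 and 2.48 with Aurkb siRNA and 0.790, 0.759 and 0.761 with control siRNA. Sesn2 was thus the more abundant per length in all Aurkb siRNA libraries, and Sesn1 in all control siRNA libraries. The third sestrin, Sesn3, is a FOXO target and not one of the 31 genes, and it was lower at 498 ± 23.5 normalized counts with Aurkb siRNA and 906 ± 78.0 with control siRNA (log2 fold change -0.86, adjusted p = 6.97e-05 from limma).

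Ddit4l, or REDD2, is a further inhibitor of mTORC1. It had 351, 326 and 321 normalized counts with Aurkb siRNA, against 213, 212 and 192 with control siRNA. The groups did not overlap, and Ddit4l rose 1.61-fold (log2 fold change 0.69, adjusted p = 3.95e-04 from limma). On log2(RPKM + 1), a scale that shrinks the change of genes with low RPKM, its log2 fold change was 0.54, under the threshold. Ak1, the adenylate kinase of the cytosol, averaged 6128 ± 308 normalized counts with Aurkb siRNA and 5046 ± 452 with control siRNA, and Dram1, a lysosomal membrane protein of autophagy, 1231 ± 66.6 and 1067 ± 52.5 in the same order. Both passed by the adjusted p alone and were under the fold threshold.

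**Figure D3:**
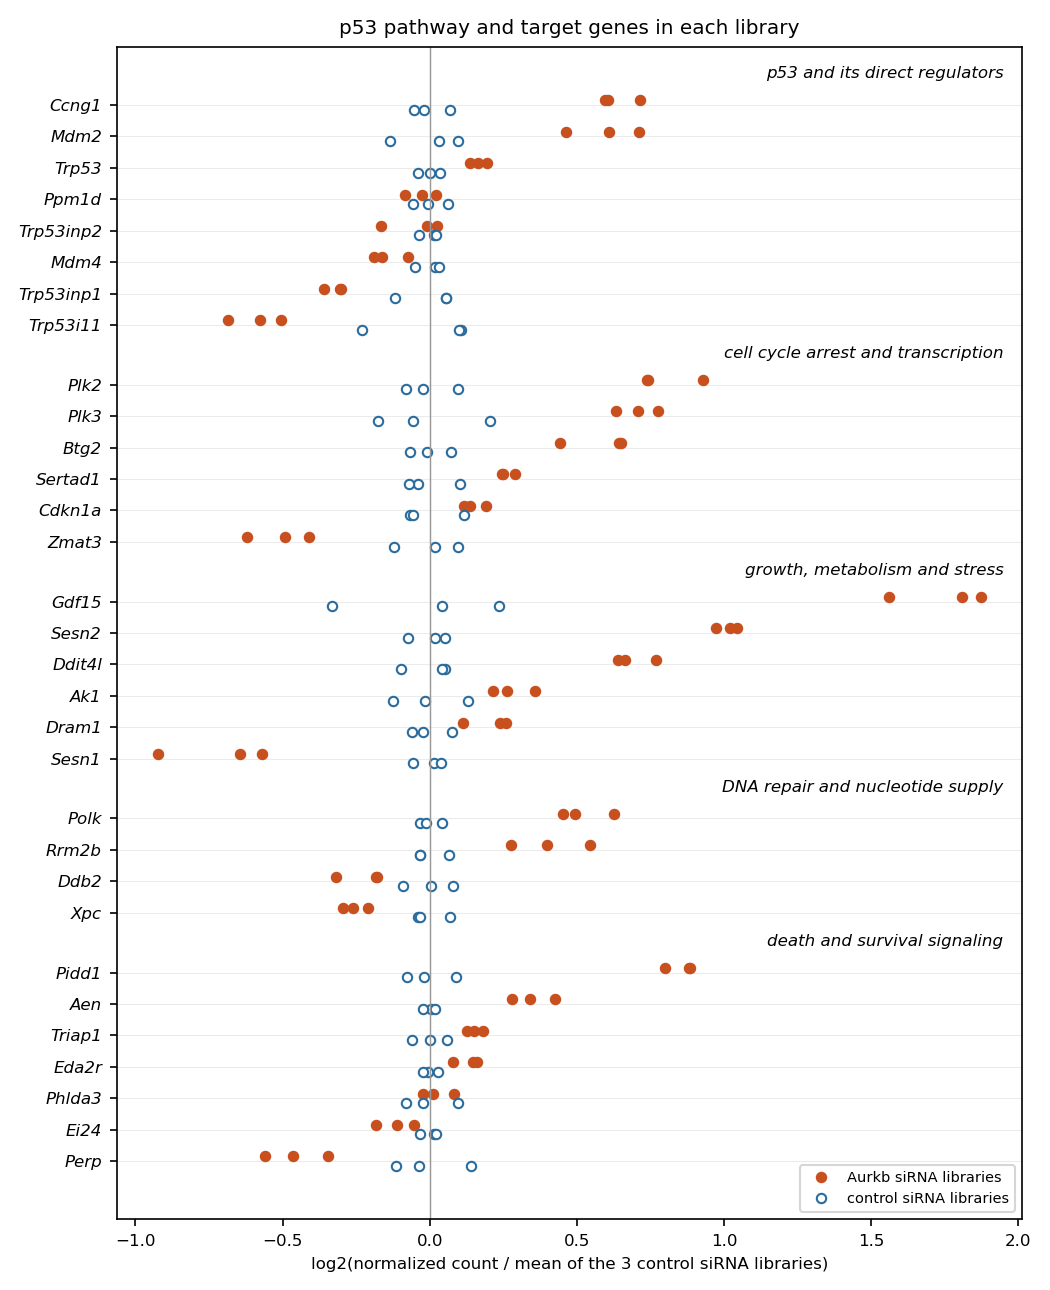
Each point is 1 library, placed on the log2 of its normalized count over the mean of the 3 control siRNA libraries, with the 31 p53 genes grouped by role and Aurkb siRNA filled. The filled points of Sesn1, Zmat3, Trp53i11 and Perp lie left of all open points. Those of Mdm4, Trp53inp1, Ei24, Xpc and Ddb2 do so too, by smaller steps. The filled points of Gdf15 and Sesn2 lie far to the right, and those of Ppm1d, Trp53inp2, Cdkn1a and Phlda3 among the open points.

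None of the 4 genes of DNA repair and nucleotide supply was called, and they were split in direction. Over all genes tested, 4.64% were called higher and 7.67% lower. Polk, a DNA polymerase that copies past damaged bases, had 1271, 1159 and 1128 normalized counts with Aurkb siRNA, against 806, 817 and 849 with control siRNA. Rrm2b, the p53-driven subunit of ribonucleotide reductase, had 1301, 1194 and 1439 normalized counts with Aurkb siRNA, against 963, 1031 and 964 with control siRNA. Both were higher without overlap, with log2 fold changes of 0.52 (adjusted p = 2.61e-04 from limma) and 0.41 (adjusted p = 0.00237), and both were under 1.5-fold. Xpc, which recognizes damage in nucleotide excision repair, averaged 483 ± 14.0 normalized counts with Aurkb siRNA and 576 ± 25.0 with control siRNA, a log2 fold change of -0.25 (adjusted p = 0.0142 from limma). Its partner Ddb2 was the lowest of the 31 genes per length, at 1.01 RPKM with Aurkb siRNA and 1.17 RPKM with control siRNA. Ddb2 had 48.9, 53.8 and 53.9 normalized counts with Aurkb siRNA, against 57.4, 64.5 and 61.3 with control siRNA, and at this depth its log2 fold change of -0.22 had an interval from -0.57 to 0.12. Ddb2 also shares exon bases with Acp2 on the other strand, at 1919 and 1887 normalized counts in the same order, and reads of such a pair cannot be told apart where the strand setting is not known.

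Of the 7 genes of death and survival signaling, Pidd1 alone was called, beside 4.64% higher and 7.67% lower over all genes tested. Pidd1 (chr7:141438113-141447565) encodes the scaffold of the PIDDosome, the complex that activates caspase-2 when a cell carries extra centrosomes. It had 269, 254 and 268 normalized counts with Aurkb siRNA, against 155, 144 and 138 with control siRNA. The 6 libraries formed well separated groups, and Pidd1 rose 1.8-fold (log2 fold change 0.85 with a standard error of 0.09, and an adjusted p of 1.97e-04 from limma). It remained near the bottom of the order per length, at rank 30 of 31 in both groups. Aen, an exonuclease of apoptotic DNA breakdown, averaged 2679 ± 138 normalized counts with Aurkb siRNA and 2102 ± 30.01 with control siRNA, a log2 fold change of 0.35 (adjusted p = 8.25e-04 from limma) that was under the threshold. Perp, a membrane protein of desmosomes and apoptosis, averaged 561 ± 41.6 normalized counts with Aurkb siRNA and 769 ± 70.8 with control siRNA, a log2 fold change of -0.45 (adjusted p = 0.00297 from limma), also under it.

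The other genes of death and survival showed smaller differences. Phlda3, an inhibitor of AKT, was by mean the third most abundant of the 31 genes per length. It averaged 3801 ± 143 normalized counts with Aurkb siRNA and 3738 ± 237 with control siRNA. The groups overlapped, and the 95% interval of the log2 fold change ran from -0.10 to 0.15. Eda2r, a receptor of the TNF receptor superfamily, had a log2 fold change of 0.13 (adjusted p = 0.0546 from limma, or 0.033 when the replicate number was a block). Triap1, an inhibitor of apoptosis in mitochondria, had 0.15 (adjusted p = 0.0719), and Ei24, a protein of the endoplasmic reticulum, -0.12 (adjusted p = 0.0903). These 3 genes did not overlap between the groups and did not pass the adjusted p.

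**Figure D4:**
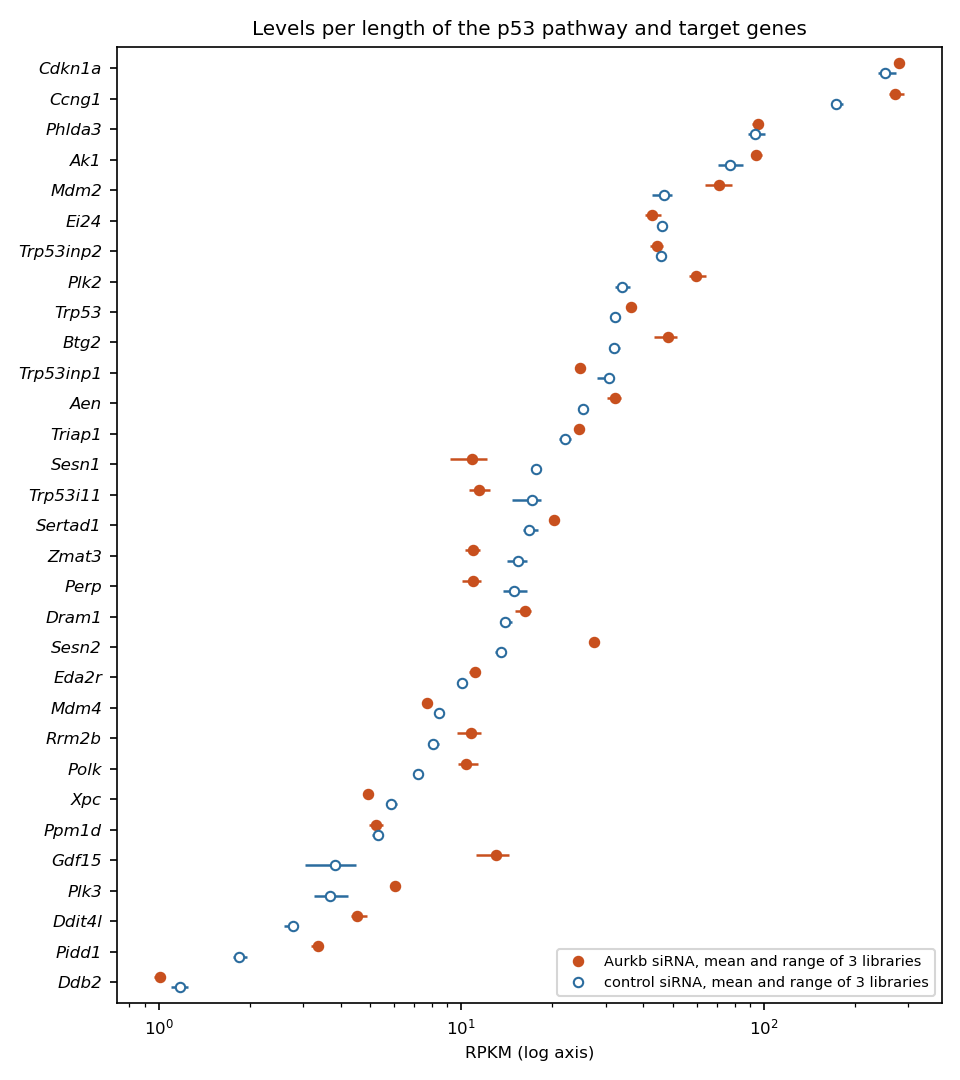
Levels of the 31 p53 genes per length are drawn in RPKM on a log axis, as the mean and range of 3 libraries for Aurkb siRNA (filled) and control siRNA (open), in the order of the control siRNA mean. Cdkn1a and Ccng1 lead in both groups at 251 RPKM and 173 RPKM with control siRNA, and the genes that rose stand in all parts of the order.

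Per length, the genes covered a range from about 1 RPKM for Ddb2 to 279 RPKM for Cdkn1a with Aurkb siRNA. By mean RPKM, the ranks of Cdkn1a, Ccng1, Phlda3, Ak1 and Mdm2 were 1 to 5 in both groups. Single libraries could differ from this order. In Aurkb siRNA replicate 1, Ccng1 was above Cdkn1a, at 291 against 279 RPKM. In Aurkb siRNA replicate 3, Ak1 was just above Phlda3, at 92.1 against 91.7 RPKM. Ccng1 reached 271 RPKM with Aurkb siRNA, against 173 RPKM with control siRNA, and so came close to Cdkn1a. Its mean was 8.51 RPKM below that of Cdkn1a with Aurkb siRNA and 78.1 RPKM below it with control siRNA. Sesn2 stood at rank 12 with Aurkb siRNA and at rank 20 with control siRNA, and Sesn1 at ranks 22 and 14 in the same order.

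The promoters were then set beside these values. An exact p53 half-site was searched on both strands, in the consensus of 3 purines, C, A or T, A or T, G and 3 pyrimidines. At least 1 window held it for 10 of the 25 matched genes (40%), beside 8.45% of the 10983 genes tested that have a window. These were Aen, Ccng1, Cdkn1a, Ddit4l, Ei24, Mdm2, Polk, Ppm1d, Sesn1 and Trp53. The Sesn1 and Polk matches lie in windows of starts inside the gene, and a further Cdkn1a window held no match. Such elements are part of how p53 targets are recognized, so that a high share among them is no separate observation. A pair of half-sites with up to 3 mismatches, 0 to 13 bases apart, was found for 8 genes (32%), beside 18.0% of those tested. The closer form printed above for Ccng1 and Cdkn1a, with touching half-sites and at most 1 mismatch, was a choice made after the sequences were seen, and it was held by 7 of the 10983 genes (0.0637%). Besides Ccng1 and Cdkn1a these were Gtse1, Rps27l, Mthfd1, Calhm2 and Sptbn4, with log2 fold changes of 0.69, 0.44, 0.19, -0.01 and 0.21. Of the 7, Ccng1 and Gtse1 were called higher, and with Rps27l (adjusted p = 7.69e-04 from limma) and Mthfd1 (adjusted p = 0.0464) 4 were higher by the adjusted p alone, beside the 4.64% and 19.5% of all genes tested. Cdkn1a was not among these 4, and with 7 genes picked after the sequences were seen nothing is read from the counts. Of the 8 p53 genes that rose, Ccng1, Ddit4l and Mdm2 held an exact half-site in this window. Sesn1, the gene that fell, held one too.

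Elements of other factors were searched in the same windows. The letters TGATGNAA, a form of the C/EBP-ATF element bound by ATF4, were found for Polk alone (4%, beside 2.87% of the genes tested). The letters TGACNNNGC, the core of the antioxidant response element bound by NRF2, were found for Ak1, Cdkn1a, Ddit4l, Eda2r, Sesn2 and Trp53 (24%, beside 17.0%). The Sesn2 match is shown because Sesn2 had the smallest adjusted p of the 31 genes, and it lies at chr4:132510464-132510512 on the minus strand, its capitals marking the element.
Sesn2: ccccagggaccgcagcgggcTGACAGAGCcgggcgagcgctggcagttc
A match is a string of letters and not a site of binding, and elements outside these windows, where several known p53 elements of mouse genes lie, were not searched.

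The 3′ UTRs were searched for the 7-base words AACGTGT and ACGTGTA, which had been picked in an earlier look at these libraries because they are frequent among genes called lower. They were found in the 3′ UTRs of Zmat3 and Xpc, which is 6.45% of the 31 genes, beside 6.83% of the 13215 genes searched, 3.53% of those called higher and 21.6% of those called lower. Zmat3 and Xpc were lower by the adjusted p and were not called, and Sesn1, the gene that fell, held neither word.

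The rest of the pathway was read from lists of genes that are not among the 31. Of 34 other transcriptional targets of p53, 4 were higher (11.8%) and 1 lower (2.94%), beside 4.64% and 7.67% of all genes tested. By the adjusted p alone, 10 were higher and 4 lower, beside 19.5% and 20.5%. Their median log2 fold change was 0.00. Those called higher included Tnfrsf10b, a death receptor for TRAIL, at 1864 ± 72.4 normalized counts with Aurkb siRNA and 1075 ± 58.6 with control siRNA. They also included the cytokine Lif at 918 ± 82.0 and 448 ± 48.7, and Gtse1 at 533 ± 84.8 and 326 ± 16.3. Pmaip1, the BH3-only protein NOXA, was lower, at 260.2 ± 42.7 normalized counts with Aurkb siRNA and 478 ± 43.7 with control siRNA (log2 fold change -0.88, adjusted p = 8.00e-04 from limma). Bax averaged 2856 ± 14.7 normalized counts with Aurkb siRNA and 2079 ± 184 with control siRNA, and Bbc3, or PUMA, 532 ± 57.3 and 391 ± 28.0. Their log2 fold changes of 0.46 (adjusted p = 6.80e-04) and 0.44 (adjusted p = 0.00609) passed by the adjusted p and were under 1.5-fold. The death receptor gene Fas, at 691 ± 12.7 normalized counts with Aurkb siRNA and 705 ± 60.1 with control siRNA, had a log2 fold change of -0.03 (adjusted p = 0.798 from limma).

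Over all genes tested, 4.64% were called higher and 7.67% lower. Of 19 tested kinases, cofactors and ligases that act on p53, 0 were higher and 1 (5.26%) was lower, with a median of -0.07. That gene was Rchy1, or PIRH2, a further ubiquitin ligase of p53 and itself a p53 target, which fell to 607 ± 41.1 normalized counts with Aurkb siRNA, against 1355 ± 99.9 with control siRNA (log2 fold change -1.16, adjusted p = 1.80e-05 from limma). Rchy1 and Mdm2 thus moved in opposite directions. Of 20 cell cycle genes that p21 is known to repress through the DREAM complex, 0 were called in either direction, with a median of 0.10. By the adjusted p alone, 2 of them were higher and 0 lower, beside 19.5% and 20.5% of all genes tested. Of 23 tested paralogs of the 31 genes, 0 were higher and 2 lower (8.70%, near the 7.67% of all genes tested). The 2 were Sesn3 and Cdkn1c, the CDK inhibitor p57, which had 23.6 ± 6.11 normalized counts with Aurkb siRNA and 66.6 ± 25.8 with control siRNA. The call of Cdkn1c was lost on log2(RPKM + 1), at a log2 fold change of -0.50. The p53 relative Trp63 was below the minimum level for a test, and Trp73 was not in the table.

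**Figure D5:**
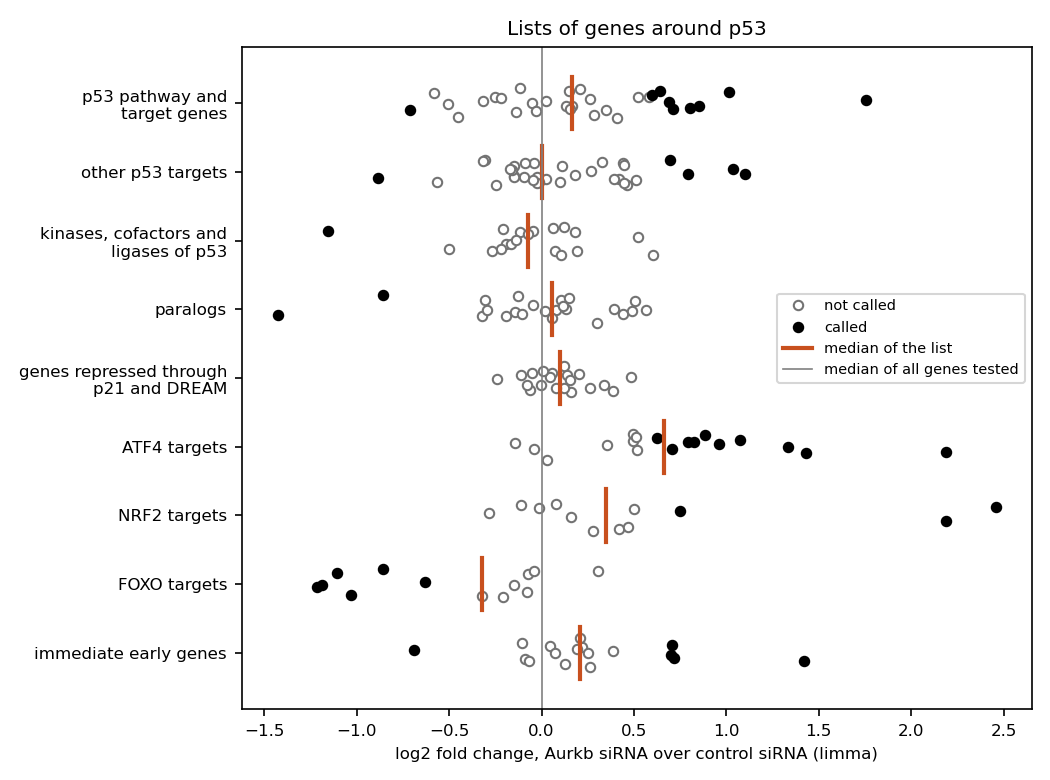
Every tested gene of the p53 list and of 8 other lists is placed on its log2 fold change, Aurkb siRNA over control siRNA, with called genes filled, a bar at the median of each list and a line at the median of all genes tested. The median of the 31 p53 genes is 0.17, that of the other p53 targets 0.00, that of the ATF4 targets 0.67 and that of the FOXO targets -0.33.

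The lists of the other factors that act on Gdf15 and the sestrins were read in the same way, beside 4.64% called higher and 7.67% lower over all genes tested. Of 18 ATF4 targets, 10 were higher and 0 lower, with a median of 0.67. Among them Mthfd2, Psat1 and Shmt2, enzymes of serine and one-carbon metabolism, and Asns, asparagine synthetase, had log2 fold changes of 1.43, 1.33, 0.96 and 1.07. Of 12 NRF2 targets, 3 were higher and 0 lower, with a median of 0.35, namely the heme oxygenase Hmox1, the cystine transporter Slc7a11, which is also on the ATF4 list, and the glutathione reductase Gsr. Of 13 FOXO targets, 0 were higher and 6 lower, with a median of -0.33, among them Bcl2l11, Txnip, Sesn3 and Fbxo32 with log2 fold changes of -1.11, -1.03, -0.86 and -1.22. Gdf15 and Sesn2 thus rose beside the ATF4 targets, and Sesn1 fell beside the FOXO targets. Which factor moved any of these genes was not tested. Of 17 immediate early genes, which p53 genes such as Plk2, Plk3 and Btg2 are known to accompany after growth stimulation, 4 were higher and 1 lower, with a median of 0.21. Those called higher were Myc, Dusp1, Atf3 and Fosl1, and Egr1 was lower. Of these, Atf3 is also on the ATF4 list, among its 10 higher genes. The call of Atf3 was lost without Aurkb siRNA replicate 1 (log2 fold change 0.57) and on log2(RPKM + 1) (0.43), and that of Egr1 without Aurkb siRNA replicate 2 or control siRNA replicate 1 (-0.57 in each case).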

How the data were processed

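RNA of lung-resident fibroblasts was sequenced in 3 Aurkb siRNA and 3 control siRNA libraries. For the reads, bcl2fastq, CASAVA 1.8, TopHat and DESeq with mm10 are listed in the submitters' processing notes. How reads were counted, with which strand setting and annotation, is not given in the sources used here. Values per library were deposited by the authors as RPKM, reads scaled by gene length and counted reads. Beside them stand, as deposited by the authors, group means in signal units (counts over size factors), their fold ratio, its log2 value and p-values. Of these only the means entered here, to find the size factors. Whole reads were recovered from the RPKM values for 100% of values (tolerance 0.001) and divided by the size factors.

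The genes that reached a mean of 10 in either group entered limma 3.58.1 (trend, R 4.3.3) on log2(normalized count + 1), with 4 residual degrees of freedom. The plus 1 understates changes of low genes. Benjamini-Hochberg adjustment covered all genes tested, and the script was tested on simulated data. Because the deposited values were read as RPKM, limma on the log scale was the test, with the study's thresholds of 0.05 and 1.5-fold. An alternative was voom on the recovered reads. With 3 libraries against 3, an exact permutation test of a single gene cannot go below p = 0.1. Libraries of the same replicate number deviated together (correlations of 0.395, 0.173 and 0.214, against -0.243 to 0.049 for different numbers), and a fit with that block was run. Other alternatives changed the scaling, unit, pseudocount, minimum level or thresholds, or left out 1 library.

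Gene coordinates and promoters are from RefSeq (GRCm38.p6), exon overlaps and 3′ UTRs from GENCODE M21. The genes and lists were chosen with earlier results of these data known. Named were all 31 genes, Aurkb, up to 4 called genes of each list with the smallest p, and Fas, Bax and Bbc3, of which 1 list gene is not reported here; Sesn3 was also described beside its relatives, and genes with the closer p53 element were named after their values were seen. The authors' fold and p-value columns were not used. Python 3.11.15 was used with numpy 2.4.6, pandas 2.3.3, matplotlib 3.10.9 and scipy 1.17.1.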

Additional observations from a re-analysis of the deposited data

How the results depend on the processing

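The 31 genes were refitted under 15 alternatives, with 451 of 465 values unchanged in direction and call. That count does not follow the adjusted p alone. With 1 library left out, the largest adjusted p from limma was 0.0739 for Trp53, 0.0789 for Dram1, 0.0515 for Sertad1 and 0.0565 for Xpc, all above 0.05. In the other direction, the smallest was 0.0241 for Cdkn1a, 0.0383 for Mdm4 and 0.0478 for Eda2r. The exceptions in direction or call, beyond Mdm2, Ddit4l, Trp53i11 and Btg2, were sign changes of values near 0. Over the left-out libraries, log2 fold changes ran from -0.086 to 0.0081 for Trp53inp2 (the highest without Aurkb siRNA replicate 1). They ran from -0.013 to 0.075 for Phlda3 (-0.0043 without Aurkb siRNA replicate 2, and the lowest without control siRNA replicate 1). For Ppm1d they ran from -0.057 to 0.0018 (the highest without control siRNA replicate 3). Btg2 was also called after quantile normalization and with total reads as scaling, which gave 9 p53 genes higher. Without a fold threshold 16 were higher and 6 lower, and at 2-fold 2 and 0. Leaving out 1 library gave 7 to 9 higher and 1 to 2 lower. Over all genes, log2(RPKM + 1) called 310 higher and 535 lower, a 2-fold threshold 224 and 380, and no fold threshold 2711 and 2850; the cause of the RPKM difference was not tested. The replicate block called 694 and 1171 genes and 8 and 1 p53 genes, and changed no call of the 31. Of 25 genes of the other lists that were refitted, Fas ran from -0.10 to 0.03 over the left-out libraries (0.025 without control siRNA replicate 2), and 5 values fell below a threshold, for Atf3, Egr1 and Cdkn1c. No scaling moved the median of all genes by more than 0.028. The identity of paralogous proteins, planned as a description, was not run. Depth limited Ddb2 most, at 48.9 to 64.5 normalized counts a library.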
